A study of Rattus norvegicus with 8 samples.

Results

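Ultraconserved regions are stretches of the genome that are identical between human, mouse and rat. Many are transcribed from 1 strand or from both, and these transcripts of ultraconserved regions are mostly noncoding. Regions that overlap exons often lie in genes of RNA-binding and splicing proteins, and regions in introns or between genes often lie near genes of developmental transcription factors. They are numbered in their order along the human chromosomes, so that consecutive numbers can lie close together.

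The ultraconserved region transcripts studied here are the noncontrol probes of a rat long noncoding RNA array whose systematic name begins with "uc.", 962 of the 24684 probes. They cover 481 regions, numbered up to uc.483, with 1 probe for the + strand and 1 for the − strand of each region and 1 spot per probe. The name gives the region and the strand, but which genome's + strand is meant is not stated in the sources used here. Positions and sequences of the probes were not used here, so that no region is placed in an exon, an intron or between genes.

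RNA came from the full-thickness skin of Sprague-Dawley rats, all male. The sham group was given sodium citrate solution, and the other group 60 mg/kg streptozotocin (STZ) into the peritoneum at 4 weeks of age. STZ kills the insulin-producing beta cells and so models diabetes that lacks insulin, and skin was taken after 4 weeks, at 8 weeks of age. The labels also mention a skin wound inflicted after the diabetes had developed, and leave unclear if that applies to the skin on these arrays. The labels list 4 samples per group, and the design text speaks of 4 sham-treated rats, but replicates 1 and 3, and replicates 2 and 4, of each group were scans of the same array on different days. The log2 levels of uc. probes well above background in all samples differed with an SD of 0.098 to 0.125 between such scans and of 0.962 to 1.18 between the arrays of a group. The scans of an array were averaged, giving sham A and STZ A (scans 1 and 3) and sham B and STZ B (scans 2 and 4), so that n = 2 per group throughout. All 4 arrays lay on 1 slide. The sources used here do not say how many rats an array stands for, so the p-values measure only the spread between these arrays.

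A level below is the log2 of a spot's intensity over the 75th percentile of its array, so that a level of 0 is as bright as that percentile. That percentile was 1138 to 1336 in the sham scans, 1481 and 1496 in STZ scans 1 and 3, and 606 and 624 in STZ scans 2 and 4. On this scale the median of all 21529 tested probes was 0.23 higher in STZ, and every change below is STZ minus sham relative to that shift. Levels are compared between arrays for 1 probe at a time, since the brightness of different probes cannot be set against each other as amounts of RNA. The skin label was checked against markers. The epidermal genes Krt14, Krt1 and Ivl and the dermal fibroblast genes Col1a2, Col3a1, Dcn, Lum and Pdgfra were well above background in all samples, while 5 of the 8 listed epidermal genes, among them Krt5 and Krt10, were not matched to a probe by accession.

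Most ultraconserved region probes gave little signal, and how many could be detected differed between arrays. Between 507 and 552 of 962 uc. probes were well above background in the sham scans (52.7% to 57.4%), 594 and 601 in STZ scans 3 and 1, and 793 and 814 in STZ scans 4 and 2 (82.4% and 84.6%). Over all noncontrol probes the share was 82.1% to 84.3% in the sham scans, 86.2% and 86.8% in STZ scans 3 and 1, and 92.2% and 92.7% in STZ scans 4 and 2. The uc. probes thus lay below the whole array in every scan, and STZ B stood apart from the other 3. On that array the median intensity of the uc. probes was 26.3 and 26.6 in the 2 scans, against 13.0 to 15.9 in sham and 19.52 and 19.97 on STZ A. The median of the 153 negative control spots was 2.23 and 2.35 there, and 1.87 to 2.59 in the other scans.

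**Figure D1:**
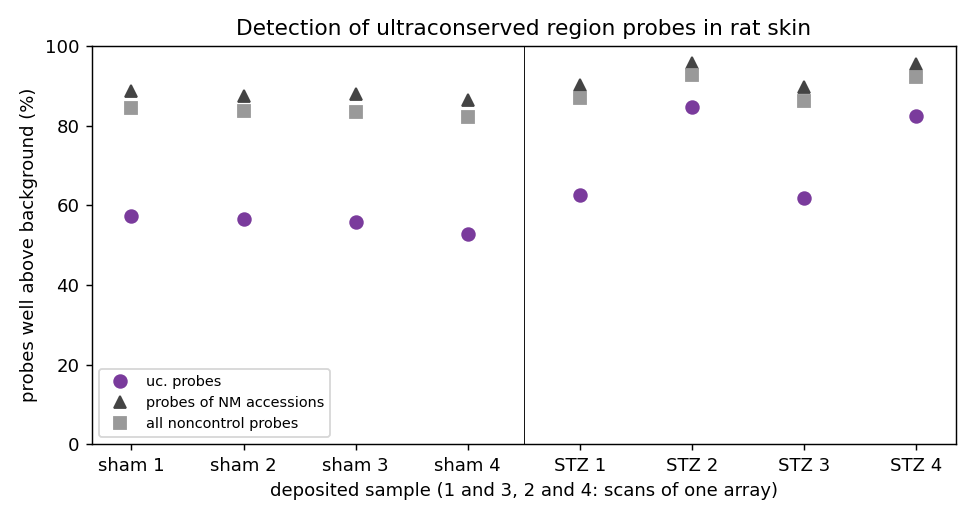
Share of probes well above background (y axis, %) in each of the 8 deposited samples (x axis), for the 962 uc. probes, the 15321 probes of NM accessions and all 24684 noncontrol probes. The uc. share is 52.7% to 57.4% in sham and 82.4% and 84.6% in STZ 4 and 2, and the points of samples 1 and 3, and 2 and 4, of a group are 2 scans of 1 array.

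Of the 962 probes, 443 were well above background in all 8 samples (46.0%, against 78.7% of all noncontrol probes) and 100 in none (10.4%, against 4.89%). A further 151 were detected in both scans of STZ B and in no other sample (15.7%, against 4.77% of all noncontrol probes). The 617 probes detected in at least 4 of the 8 samples were tested, and 345 were not. The filter can be passed through 1 group alone, so these 617 are not the whole set.

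Both strands of a region were often detected. Both probes were well above background in all 8 samples for 130 of the 481 regions, the + probe alone for 86, the − probe alone for 97 and neither for 168. With detection in at least 1 sample as the rule, both strands were seen for 388 regions, the + strand alone for 45, the − strand alone for 41 and neither for 7. Per sample, 245 to 412 of 481 + probes and 262 to 402 of 481 − probes were detected. Detection of a strand says that its probe gave signal. How far the labelling keeps strands apart was not tested.

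A small group of ultraconserved region probes lay above the 75th percentile of the array. In 26 probes, from 25 regions, the mean level was above 0, and 16 of these were − and 10 were + probes. In 18 of the 26 the level was above 0 on all 4 arrays. The brightest was uc.420-, at 4.05 and 3.71 on sham A and B and at 4.26 and 3.79 on STZ A and B, the order used for all pairs of values below. Its groups overlapped, and its change was −0.08 ± 0.45 (SE). The opposite strand, uc.420+, was also above 0 on every array, at 2.28 and 1.35 in sham and at 0.53 and 1.82 in STZ. It was the only region with both strands among the 26.

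Of the next 4 probes by level, 1 had groups that did not overlap, as had 7 of the 26 bright probes. Over all tested probes, both STZ arrays lay above both sham arrays in 17.5% and below both in 26.5%. The count of 1 in 4 is thus no result about these probes. The probe uc.46- was at 2.79 and 3.69 in sham and at 3.70 and 2.48 in STZ. The probe uc.141- was at 2.74 and 3.05 in sham and at 2.62 and 2.46 in STZ, with both STZ arrays below both sham arrays (change −0.58 ± 0.43). The probe uc.144- was at 2.79 and 2.34 in sham and at 2.91 and 2.35 in STZ. For uc.471+ the levels were 2.21 and 2.69 in sham and 3.04 and 1.45 in STZ, so that the 2 STZ arrays lay on either side of the sham arrays. None of these 5 had an unadjusted p under 0.05 in limma's moderated test (0.234 to 0.862), and the sign of the change turned under another scaling for uc.420- and uc.144-, and with 1 array left out for these and for uc.46- and uc.471+.

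Among the 26 bright probes the change ran from −2.73 to 0.34, with a median of −0.38. It was below 0 in 23 and above 0 in 3. Without STZ B the split was 12 below and 14 above, and the median was 0.03. For comparison, the median over all 7470 tested probes with a mean level above 0 was −0.32 with all arrays and −0.12 without STZ B. With all arrays the change was above 0 in 28.6% of them, against 11.5% of the 26.

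The main comparison asked how the ultraconserved region transcripts of STZ skin differed from those of sham skin. No uc. probe passed limma's moderated test after Benjamini-Hochberg adjustment over all 21529 tested probes, and neither did any other probe of the array (0% called). The smallest adjusted p of a uc. probe was 0.174, for uc.370-, and that of any probe 0.0856. At an unadjusted p under 0.05, 20 of 617 uc. probes were higher in STZ (3.24%, against 5.42% of all tested probes) and 5 were lower (0.81%, against 5.11%). Both shares lie below those of the array as a whole. The split was 18 and 11 after quantile normalization, 31 and 3 without centring on the shift of all probes, and 4 and 3 after normexp with quantile normalization. The share over all tested probes was not set beside these counts, so each such split shows only how the count depends on the processing. Without STZ B it was again 20 (against 5.6% of all tested probes) and 5 (against 3.69%), and 17 of the higher and 1 of the lower probes were the same as with all arrays.

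The sign of the change leaned upwards nonetheless. The change was above 0 for 468 of the 617 tested uc. probes (75.9%, against 50% of all tested probes, by construction) and below 0 for 149. The 617 include the probes that passed the filter through STZ alone, so these counts are no support for the lean. The same holds for every count and median over the 617 given below. Among the 443 detected in all 8 samples the change was above 0 for 308 and below 0 for 135 (69.5% above, against 46.1% of all 19431 such probes), with a median of 0.39 against −0.08, and of 0.07 against −0.03 without STZ B. Over the 617 the median change was 0.55, against −0.11 for 13904 probes of NM accessions, 0.18 for 1421 predicted noncoding RefSeq transcripts (XR accessions), 0.14 for 2957 probes whose names begin with MRAK and 0.19 for 538 whose names begin with MRuc. Both STZ arrays lay above both sham arrays for 121 uc. probes (19.6%, against 17.5% of all tested probes) and below both for 28 (4.54%, against 26.5%). The median change was 0.14 without STZ B, and was 1.14 without STZ A. Quantile normalization gave 0.10, and normexp followed by it 0.05. On STZ B, 459 of the 617 probes had their highest level of the 4 arrays (74.4%, against 47.6% of all tested probes).

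The change of a uc. probe went with how dim it was, as it did over the whole array. The 125 tested uc. probes with a mean level under −6 had a median change of 1.18, against 1.02 for all 1438 tested probes of that class. The 37 uc. probes detected in every STZ and no sham sample all lay in this class. Dim probes could pass the filter through STZ alone, so the medians of the dim classes are in part set by the filter. The 307 between −6 and −4 had a median of 0.61, and so had all 4634 probes of that class. The 121 between −4 and −2 had a median of 0.37, against 0.10 for all 4239. In the 38 between −2 and 0 the median was −0.10, against −0.27 for all 3748. Without STZ B these 4 medians were 0.53, 0.12, 0.01 and 0.13 for uc. probes and 0.37, 0.15, 0.01 and −0.06 for all tested probes. The uc. probes had a median mean level of −4.87, and all tested probes one of −1.76. The part of brightness in the upward lean of the whole set was not tested further.

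**Figure D2:**
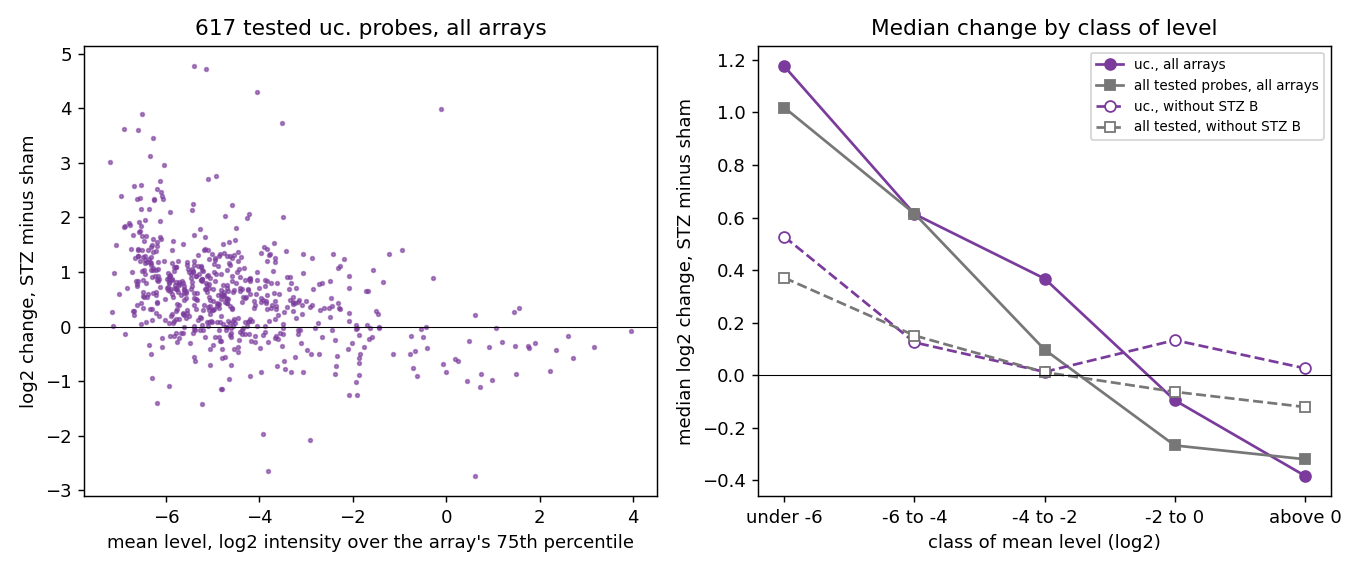
Left, log2 change (STZ minus sham, y axis) of the 617 tested uc. probes against their mean level over the 4 arrays (x axis, log2 of intensity relative to the 75th percentile). Right, median change in 5 classes of mean level for uc. probes and for all tested probes, with all arrays (filled) and without STZ B (open). The uc. median falls from 1.18 in the dimmest class to −0.38 in the brightest with all arrays, and from 0.53 to 0.03 without that array. The dimmest class includes probes that passed the filter through STZ alone.

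Of the 20 uc. probes higher at an unadjusted p under 0.05, 17 had a mean level under −4, and 18 had their highest level on STZ B. In 11 of the 20 no sham sample was well above background, so that these were tested only because STZ detected them, and their changes are a description. Another 6 of the 20 were well above background in all samples. The 10 with the smallest p among those whose arrays did not overlap were uc.370-, uc.79-, uc.392+, uc.279+, uc.266-, uc.441-, uc.367+, uc.358+, uc.69- and uc.70+, of which 6 were undetected in sham. The probe uc.370- was at −7.57 and −7.49 in sham and at −4.94 and −4.99 in STZ. Its signal was well above background in all STZ samples but in none of the sham samples. Its change was 2.34 ± 0.41 (SE). The 2 STZ arrays were thus alike for uc.370-, which sets it apart from most of the 10. After normexp with quantile normalization, which adds an offset to every spot, its change was 0.29.

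The probe uc.279+ showed the same pattern at a smaller size. It was at −7.56 and −7.51 in sham and at −5.81 and −5.31 in STZ, and it was detected in no sham and in every STZ sample. Its change was 1.75 ± 0.44. Neither probe was detected in sham, but their sham signals lay above the lowest detected levels of those arrays, so no bound below the measured ratio is given for them.

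The other probes of the 10 were higher on STZ B than on the other STZ array. The probe uc.79- was at −7.51 and −8.52 in sham and at −5.16 and −4.18 in STZ. No sham sample had it well above background, and in STZ it was at least 6.12-fold higher. Such a bound sets the STZ mean against, per sham array, the lowest detected level or the probe's own signal, whichever was higher. The lowest detected level, −7.52 on sham B, is no limit of detection. Undetected probes also lay above it, such as uc.227+ at −6.88 on that array. Each bound is therefore relative to that level, and the true ratio can be smaller. The probe uc.392+ was at −8.03 and −9.11 in sham and at −5.55 and −3.37 in STZ, at least 7.39-fold higher. The probe uc.266- was at least 5.21-fold higher and uc.358+ at least 3.42-fold higher, each detected in no sham and every STZ sample. The log2 changes of these 4 after normexp with quantile normalization were between 0.29 and 0.75, so the bounds hold for the scanner's background-subtracted signals alone.

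The probe uc.441- was well above background in all 8 samples. It was at −6.49 and −6.08 in sham and at −4.64 and −3.90 in STZ, and its change was 1.79 ± 0.49. The probe uc.367+ was at −5.58 and −7.03 in sham and at −3.42 and −0.14 in STZ. Its change of 4.30 ± 1.21 was 2.86 without STZ B and 2.50 after normexp with quantile normalization.

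Regions uc.69 and uc.70 have consecutive numbers, and 3 of their 4 probes were among the 20. The probe uc.69- was at −6.62 and −8.09 in sham and at −5.18 and −4.38 in STZ (change 2.34 ± 0.67). The probe uc.70+ was at −4.67 and −6.07 in sham and at −3.33 and −2.83 in STZ (change 2.07 ± 0.62). For uc.69+, singled out after its values were seen, the levels were −5.89 and −5.50 in sham and −3.94 and −4.49 in STZ (change 1.25 ± 0.46, unadjusted p = 0.0424). All 3 probes were higher on both STZ arrays than on either sham array. The probe uc.70- was detected in both scans of STZ B, in no other sample, and was not tested.

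**Figure D3:**
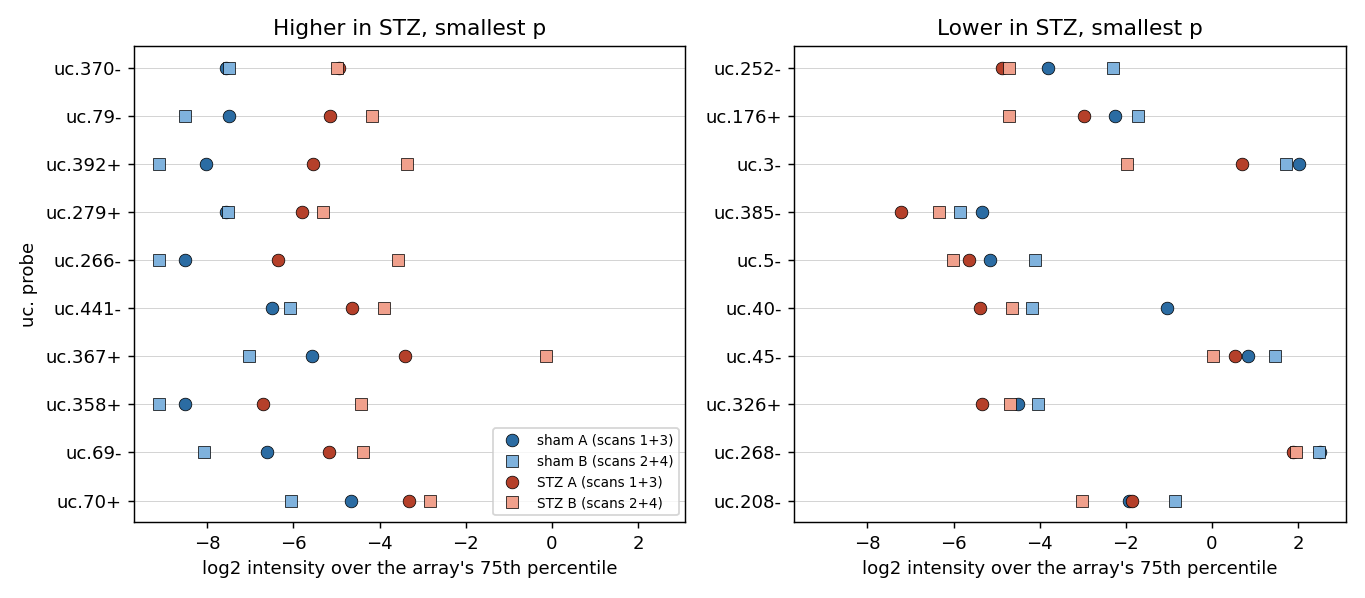
Levels on each of the 4 arrays (x axis, log2 of intensity relative to the 75th percentile) of the 10 uc. probes with positive and the 10 with negative change that had the smallest unadjusted p among those whose groups do not overlap after the shift of 0.23 is taken off the STZ arrays. Blue points are sham and red points STZ arrays. For uc.370- the STZ arrays lie at −4.94 and −4.99 and the sham arrays at −7.57 and −7.49.

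Detection in 1 group alone was almost always in STZ. In all 4 STZ samples and in no sham sample, 37 uc. probes were well above background (3.85%, against 1.43% of all noncontrol probes). The reverse held for 1 uc. probe, uc.385- (0.104%, against 0.0972%). On STZ A the 37 lay between −6.94 and −4.94, and on STZ B between −5.59 and −2.64. For 25 of the 37 the sham signal of an array lay below its lowest detected level. Relative to that level, these were higher in STZ by at least 2.21-fold to at least 7.39-fold, with a median bound of 4.01-fold. As that level is no limit of detection, the true ratios can be smaller. Region uc.79 had both of its strands among the 37, uc.79- and uc.79+, and no other region did. The 37 include uc.217+ (at least 6.65-fold), uc.170+ (at least 6.35-fold) and uc.447- (at least 5.47-fold).

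Fewer uc. probes were lower in STZ, and the probe uc.3- had the largest negative change of the 10 named by the same rule. It was bright in sham, at 2.03 and 1.72, and lay at 0.71 and −1.98 in STZ, so that both STZ arrays were below both sham arrays but differed widely from each other. Its change was −2.73 ± 0.95 (limma's moderated test, unadjusted p = 0.0348, adjusted p = 0.418). It was −1.19 without STZ B, −4.23 without STZ A, and −2.58 after normexp with quantile normalization, which thus left it almost as it was.

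The probe uc.252- was at −3.81 and −2.31 in sham and at −4.88 and −4.71 in STZ, with a change of −1.97 ± 0.63. The probe uc.176+ was at −2.25 and −1.72 in sham and at −2.97 and −4.70 in STZ, with a change of −2.08 ± 0.71. The probe uc.40- was at −1.04 and −4.17 in sham and at −5.39 and −4.65 in STZ. Its change of −2.64 ± 1.098 rests largely on 1 sham array, since it was −1.05 without sham A. The probe uc.385- was well above background in all sham samples, at −5.34 and −5.86, and in no STZ sample, at −7.22 and −6.34. Its change was −1.41 ± 0.52, and it was tested only because sham detected it.

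The probe uc.5- was detected in all sham and in 2 STZ samples, with a change of −1.42 ± 0.54. In the bright probe uc.268- the arrays of a group were close to each other, at 2.52 and 2.49 in sham and at 1.90 and 1.95 in STZ. The difference between groups was larger than the spread within them, but the change of −0.81 was small against the moderated error of 0.41 (unadjusted p = 0.106), and it was −0.45 after quantile normalization. The probes uc.45-, uc.326+ and uc.208- had changes of −1.099 ± 0.49, −0.97 ± 0.48 and −1.26 ± 0.65. In uc.208- the groups are apart only after the shift of all probes is taken off.

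Where both strands of a region were tested, their changes correlated only weakly. In 215 such regions the change was above 0 on both strands in 119, below 0 on both in 23 and of opposite sign in 73. The 215 include probes that passed the filter through STZ alone, so these counts are in part set by the filter. In the 130 regions with both strands detected in every sample, the counts were 56, 21 and 53. The correlation of the changes across the 215 regions was 0.198 (Pearson) and 0.224 (Spearman), and 0.160 and 0.243 over these 130. Regions share the same 4 arrays and the upward lean of dim probes, so this is a description of these arrays. The change of the + probe minus that of the − probe had a median of 0.14 over the 215 and of 0.08 over the 130. It exceeded 1 in size in 68 of the 215 and in 30 of the 130 regions. With 2 arrays against 2 an exact permutation test of a single difference cannot go below a two-sided p of 0.333, so none is given.

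The 5 regions with the largest differences between strands were uc.108, uc.170, uc.462, uc.3 and uc.19. In region uc.108 the − probe had a change of 4.72 and the + probe one of 0.21. The levels of uc.108- were −6.12 and −9.11 in sham and −5.09 and −0.26 in STZ, while uc.108+ lay between −6.26 and −4.55 on all arrays. On sham B uc.108- was at the lowest level of any uc. probe, and only 2 sham samples had it well above background. Its change had an SE of 1.84 and ran from 2.50 to 6.98 with each array left out. In region uc.462 the + probe had a change of 3.99 and the − probe one of 0.55. The levels of uc.462+ were −1.50 and −2.94 in sham and 0.01 and 3.98 in STZ. On STZ B uc.462+ thus gave the highest level of all uc. probes, and both STZ arrays lay above both sham arrays. Its change was 2.20 without that array and 3.86 after normexp with quantile normalization.

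In region uc.3 it was the bright strand that was lower in STZ. The − probe had a change of −2.73 and the + probe one of 0.39, and uc.3+ lay between −5.67 and −4.57 on all arrays. In region uc.170 the changes of the + and − probes were 3.61 and −0.01, and in region uc.19 they were 2.71 and −0.34. For uc.170+ and uc.19+ the changes were 1.77 and 0.99 without STZ B. Of these 10 probes, uc.462+, uc.3- and uc.170+ had an unadjusted p under 0.05 by limma (0.0357, 0.0348 and 0.0458), and of these 3 only uc.170+ was undetected in sham. Over all tested probes 5.42% were higher and 5.11% lower at that p. The 10 were picked for large differences of change, so their p-values are no support for a difference between strands. The signs of the small changes of uc.3+, uc.108+, uc.170- and uc.19- turned under another setting or with 1 array left out. In region uc.401, singled out after its values were seen, both strands were higher, by 4.76 ± 1.55 on the + and by 2.57 ± 0.96 on the − probe. The probe uc.401- was undetected in sham and was tested only because STZ detected it. Its sham levels, −8.00 and −8.18, lay below the lowest detected levels of those arrays, so the likeness of the strands is a description.

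**Figure D4:**
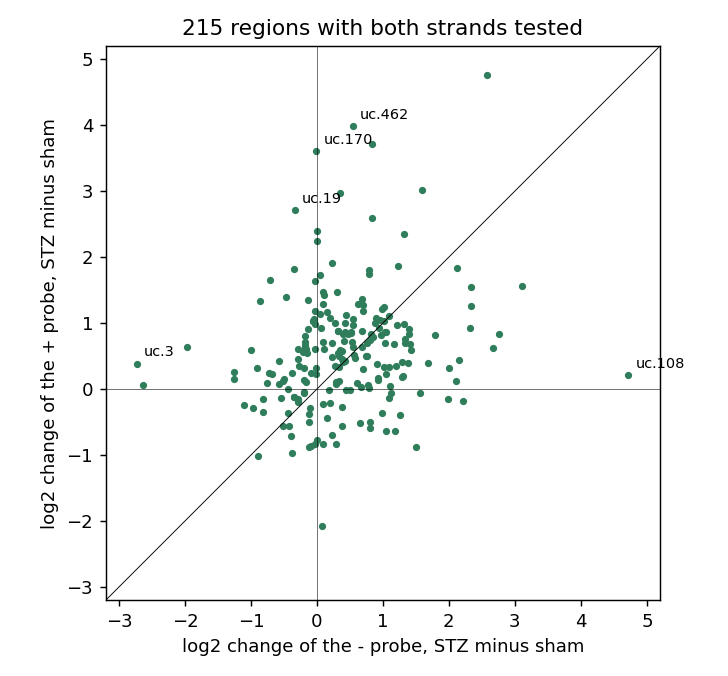
Log2 change (STZ minus sham) of the + probe (y axis) against that of the − probe (x axis) for the 215 regions with both strands tested, with the 5 regions of largest difference named. The line marks equal change. Points spread widely around it (Pearson correlation 0.198), and 73 regions have changes of opposite sign. The 215 include probes that passed the filter through STZ alone.

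Probes of consecutive regions were set side by side, since such regions can belong to 1 transcript. In 221 pairs of consecutive numbers on the same strand, both probes were well above background in all 8 samples. The correlation of their changes was 0.165 (Pearson) and 0.150 (Spearman) over the pairs, which share arrays and in part probes. After each probe was centred on its own mean, the largest distance between the 2 probes on any array had a median of 0.95, and in 8 pairs it was under 0.2. How often probes of regions that are not consecutive lie as close was not counted. The pairs shown were picked for closeness, and if they share a transcript was not tested. The closest pair was uc.208- and uc.209-. The first was at −1.93 and −0.86 in sham and at −1.85 and −3.01 in STZ, and the second at −2.11 and −1.03 in sham and at −2.004 and −3.18 in STZ. The centred levels of these probes were never farther apart than 0.012, although they ranged over 2.15 and 2.16 between arrays.

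The pair uc.418- and uc.419- came next, with a largest distance of 0.12. The probe uc.418- was at 0.97 and 1.75 in sham and at 1.49 and −0.26 in STZ, and uc.419- at 0.34 and 1.32 in sham and at 0.95 and −0.84 in STZ. Both were high on sham B and STZ A. The opposite strands did not follow them: uc.418+ was lowest on STZ A, at −4.40, and uc.419+ lowest on sham B, at −5.47. Others of the 8 were uc.408+ with uc.409+ (0.13), uc.424- with uc.425- (0.14) and uc.325+ with uc.326+ (0.18).

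Genes known to carry ultraconserved regions were measured on the same arrays. Of 25 listed genes of splicing and RNA-binding proteins, 22 were matched to a probe, and all 22 were well above background in every sample. The change was below 0 in 20 and above 0 in 2, with a median of −0.48, against 0 for all tested probes by construction. Most of the 22 had a mean level above 0. Over all 7470 tested probes with such a level the median was −0.32, and 28.6% had a change above 0. The median of the 22 genes was −0.23 without STZ B and −0.73 without STZ A, against −0.12 and −0.48 for the 7470 probes. At an unadjusted p under 0.05, 1 of the 22 was lower and none higher (against 5.11% and 5.42% of all tested probes), and none passed limma's test after adjustment. Srsf3, a member of the SR family of splicing factors, was at −0.54 and −1.32 in sham and at −2.27 and −2.14 in STZ (change −1.51 ± 0.48, unadjusted p = 0.0263). Srsf6, another SR protein, had a change of −0.99 ± 0.42 (unadjusted p = 0.0635).

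Of 40 listed genes of developmental transcription factors, 23 were matched and tested. The change was below 0 in 15 and above 0 in 8, with a median of −0.13 (from −0.43 to −0.09 with each array left out), and 2 were lower and none higher at an unadjusted p under 0.05 (against 5.11% and 5.42% of all tested probes). Dlx1, a homeobox factor of forebrain interneurons, was at −1.36 and −0.9997 in sham and at −5.52 and −4.80 in STZ (change −4.21 ± 0.49, limma's unadjusted p = 3.39e-04, adjusted p = 0.107). Lmo4, a LIM-only transcriptional cofactor, had a change of −1.27 ± 0.43 (unadjusted p = 0.0327). Both lists were chosen with earlier results of these data in view.

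For the 26 bright uc. probes, the gene among the 45 matched members of both lists with the most similar pattern over the 4 arrays was looked up, after the data had been seen. The measure was again the largest distance between centred levels. The probe uc.141- was closest to Hnrnpm (0.038), uc.144- to Hnrnpdl (0.055), uc.154+ to Hnrnpk (0.091) and uc.45- to Hnrnpu (0.12), all genes of heterogeneous nuclear ribonucleoproteins, which bind nascent transcripts. Hnrnpdl was at 2.65 and 2.21 in sham and at 2.68 and 2.16 in STZ, with the same order of arrays within each group as uc.144-. Hnrnpu was at 2.42 and 3.13 in sham and at 2.32 and 1.65 in STZ, and uc.45- at 0.84 and 1.48 in sham and at 0.54 and 0.03 in STZ. Of 13886 coding probes, 4 were at least as close to uc.144- as Hnrnpdl was, and 16 at least as close to uc.45- as Hnrnpu was. A pattern of 4 arrays is short, and the likeness is a description.

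**Figure D5:**
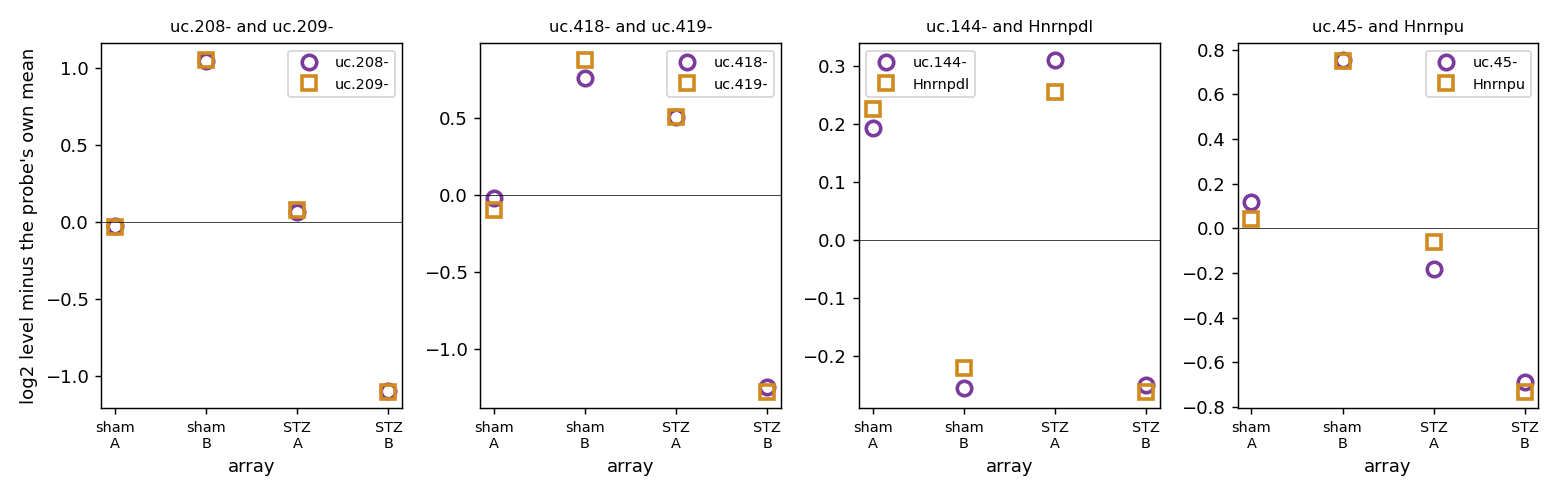
Log2 level minus the probe's own mean (y axis) on the 4 arrays (x axis) for 2 pairs of consecutive ultraconserved regions and for 2 uc. probes beside the list gene of closest pattern. The members of uc.208- and uc.209- lie within 0.012 of each other on every array, those of uc.418- and uc.419- within 0.12, uc.144- and Hnrnpdl within 0.055, and uc.45- and Hnrnpu within 0.12.

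Some ultraconserved transcripts have been studied by name, and the genes that 3 of them lie in are probed on this array. As background, region uc.475 lies in Ogt, the gene of the enzyme that adds N-acetylglucosamine to proteins. The probe uc.475+ was at 1.18 and 0.81 in sham and at 1.23 and 0.46 in STZ (change −0.38 ± 0.49), and Ogt had a change of −0.70 ± 0.42. The opposite strand, uc.475-, also detected in all 8 samples, had a change of −0.11. Region uc.63 lies in Xpo1, the gene of a nuclear export receptor. The probe uc.63- was at −3.18 and −2.50 in sham and at −2.64 and −1.53 in STZ (change 0.53 ± 0.58), and Xpo1 had a change of −0.10 ± 0.44. Region uc.338 lies in Pcbp2, the gene of an RNA-binding protein. The probes uc.338+ and uc.338- had changes of −0.06 ± 0.50 and 1.57 ± 0.91, and Pcbp2 one of −0.31 ± 0.47. The groups overlapped for uc.475+, uc.63- and uc.338+, and none of these changes passed limma's test.

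Markers of other skin cell types differed between the groups alongside these values. All 12 matched hair shaft and inner root sheath markers were lower in STZ, with a median change of −6.37 and a summed level (in multiples of the array's 75th percentile) of 811 and 888 in sham and of 102 and 6.36 in STZ. All 8 macrophage and dendritic cell markers were higher, with sums of 40.8 and 22.4 in sham and of 138 and 172 in STZ. All 6 matched neutrophil markers and all 7 T and NK cell markers were higher as well, with sums of 1.60 and 1.34 against 70.1 and 73.9, and of 1.32 and 1.08 against 8.34 and 14.0. All 5 matched adipocyte markers were lower, with sums of 153 and 196 against 39.1 and 69.8, and all 4 erythroid markers, with sums of 155 and 196 against 34.1 and 33.3. The 5 matched fibroblast markers summed to 404 and 362 in sham and to 434 and 881 in STZ, the 3 epidermal ones to 184 and 78.2 and to 244 and 199 (Krt14 and Krt1 with changes of 0.74 and 1.33, Ivl with one of −1.89), and the 6 skeletal muscle ones to 342 and 479 and to 397 and 486. No marker of these lists was below background in a whole group. Their part in the changes of the uc. probes was not tested, and in bulk skin fewer cells of a type and less RNA per cell cannot be told apart.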

How the data were processed

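Total RNA of skin was amplified, labelled with Cy3 and hybridised in 1 colour, per the labels' protocols. The deposited intensities are Agilent's processed signals, background-subtracted and not normalized between arrays, read with Feature Extraction 11.0.1.1 and the build rn4 per the file headers (11.0.0.1 per the submitters' processing notes). The deposited median spot and background intensities served 1 alternative. The deposited flags are other values, 0 or 1 per spot, per the file headers.

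Signals were taken to log2 relative to the 75th percentile of all 42136 noncontrol spots of a file, outlier spots were left out, and spots were averaged per probe and the 2 scans per array. Probes that were well above background in no fewer than 4 of 8 samples, 21529 in all, were tested with limma 3.58.1 (lmFit and eBayes, two-sided, R 4.3.3), STZ arrays being shifted by the median change of all tested probes, with Benjamini-Hochberg adjustment over all of them. The prior had 3.00 degrees of freedom, against 2 residual. The fit was tested on simulated data. Precision is limited by the number of arrays.

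The named uc. probes are the 10 each way with the smallest p whose arrays do not overlap, the 5 brightest, the 5 largest strand differences and those detected in 1 group alone; of each gene list, the 2 genes with the smallest p. All other uc. probes named (opposite strands, consecutive regions, probes in known genes or with a gene's pattern) fall outside this rule and were chosen after values were seen. The nearest gene to a probe was planned but not looked up without positions. Members, lists and tests were chosen with earlier results of these data known. Coding probes were named through a RefSeq table of the rat assembly GRCr8, which held 14274 of 15321 accessions, and a gene with several probes is given by its brightest. Alternatives covered background, scaling, filter, scans, blocks, weights and left-out arrays.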

Additional observations from a re-analysis of the deposited data

How the results depend on the processing

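With 2 arrays a group, 1 array can decide a count. The counts of the settings below stand without the share over all tested probes, and are no result about uc. probes. Against 25 uc. probes at an unadjusted p under 0.05 (20 higher, 5 lower), limma gave 29 after quantile normalization (18 and 11), 7 after normexp with quantile normalization (4 and 3), 34 without centring (31 and 3), 10 among probes detected in all 8 samples (7 and 3), and 28 in the second scans (25 and 3). Treating the 8 samples as separate arrays gave 147 (121 and 26), of which 56 passed adjustment. None passed under any other setting run. Leaving out each array in turn gave 10 to 236 in all, 7 to 221 higher and 3 to 15 lower. A group then holds 1 array, assumed to vary like the others. Replicate numbers share only a number: deviations of same-numbered arrays correlated at −0.20. The replicate block gave 39 (35 and 4). A crossed replicate block, added after seeing the data, gave 56 (48 and 8). The median change stayed above 0 throughout, from 0.05 (normexp) to 1.14 (without STZ A). For 34 named probes 497 values were recomputed. In 449 direction and call were the same, 23 passed adjustment, all with the samples taken as separate arrays, and 25 turned sign. With quantile normalization, normexp and no centring in turn, uc.420- turned to 0.28, 0.26 and 0.14 and uc.144- to 0.21, 0.24 and 0.061. With quantile normalization uc.3+ turned to −0.22 and uc.108+ to −0.44, the latter to −0.095 with normexp. The probe uc.170- was at 0.22 without centring, 0.071 among probes detected in all samples and 0.027 in the first scans. With each array left out, uc.420- ran from −0.47 to 0.35, uc.144- from −0.60 to 0.31, uc.46- from −1.15 to 0.43, uc.471+ from −1.39 to 0.56, uc.3+ from −0.049 to 0.82, uc.108+ from −0.45 to 0.91, uc.170- from −0.57 to 0.56 and uc.19- from −1.68 to 1.01. Between these ends, values of opposite sign were 0.12 for uc.420-, 0.086 for uc.144- and −0.16 for uc.108+ without sham A, 0.044 for uc.46- without sham B, and 0.32 for uc.170- without STZ B. The cause was not tested. The stricter filter leaves dim named probes without a value.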
